A study of Homo sapiens with 4 samples.

Results

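The MAPK feedback genes are DUSP4, DUSP5, DUSP6, SPRY1, SPRY2, SPRY4, SPRED1, SPRED2, ETV4 and ETV5, 10 of the 53617 genes listed in the deposited tables. They were chosen by name from knowledge of the ERK pathway, with earlier results of these data known. All their transcripts without a failed status were summed per gene. The cells were HT29, an established line from a human colon adenocarcinoma whose BRAF kinase carries an activating mutation, and RNA of 4 cultures was sequenced. One culture received a precursor of miR-23b and was compared with a precursor control. The other treated culture received an antimir against miR-23b and was compared with an antimir control. Each oligonucleotide was given at 50 nM (the labels print the unit as "nm") with Lipofectamine 2000 to cells of passages 12 to 13. Medium was renewed after 24 h and RNA was taken after 48 h in all 4 cultures. A precursor is a synthetic RNA that supplies a microRNA to the cell, and an antimir pairs with a microRNA to block it. The series, by its title, concerns miR-23b in self-renewal and drug resistance of colon cancer stem cells. Each group held 1 library of 1 line, so no difference below has a replicate error or a test of its own, and whether groups overlap cannot be asked.

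In the ERK cascade, RAS activates RAF kinases, RAF phosphorylates MEK, and MEK phosphorylates ERK. Active ERK induces genes whose products shut the cascade down again: dual-specificity phosphatases remove the phosphates from ERK, and Sprouty and SPRED proteins restrain RAS and RAF. The ETS factors ETV4 and ETV5 are induced by the same signal, and the level of all these mRNAs is commonly read as an output of ERK activity, which in BRAF-mutant colon cancer cells is driven by the mutant kinase.

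All FPKM values are the authors', that is, read density per transcript length and per library size. A gene's level is the sum over its transcripts. A difference is that in log2(FPKM + 1), treated library minus its control, centred on the median of all genes with a mean of at least 1 FPKM over both libraries. This scale understates changes of low genes. The depth of the libraries is unknown, since the tables give no read counts. At 1 FPKM or more, the libraries held between 13908 and 16809 genes. Of the 10 colon epithelial markers examined, 9 passed that minimum in the precursor comparison and 8 in the antimir comparison, with KRT8 the highest at 2346 to 6798 FPKM. The intestinal factor CDX1 lay below 1 FPKM in all 4 libraries, and CDX2 lay between 2.19 and 2.87 FPKM. Of the 7 markers of stroma, leukocytes and endothelium found in the tables, none passed the minimum, and the highest value was 0.816 FPKM for COL1A1. All 12 interferon-induced genes of a comparison list were more than 1.5-fold higher in the antimir library than in its control, with a median difference of 2.01. In the precursor comparison their median difference was -0.27 and 1 of the 12, IFI44L, passed 1.5-fold, lower in the precursor library. Whether this interferon difference has a part in any antimir value below was not tested. RNA of a culture was pooled over its cells, so fewer cells expressing a gene and less RNA per cell cannot be told apart.

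The sequence delivered by the precursor and bound by the antimir is shown first because it defines what could pair with the members. The mature strand, from RefSeq (GRCh38.p14, chr9:95085265-95085287, plus strand), is given with bases 2 to 8, the seed, in capitals.
hsa-miR-23b-3p: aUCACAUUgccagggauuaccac
Its perfect match in an mRNA is AATGTGA. In the longest 3′ UTR that GENCODE 29 gives each gene, 4 of the 10 feedback genes held 1 such 7-mer and the other 6 held none. Of the protein-coding genes past the minimum, 20.5% held one in the precursor comparison and 20.7% in the antimir comparison. The members' UTRs were longer, with a median of 2176.5 bases against 1332 bases (precursor comparison) and 1347 bases (antimir comparison) over all protein-coding genes. The 3 sites below lie on GRCh38 and are given in mRNA sense as DNA letters, with the seed match in capitals. The base after each match is an A, which makes them 8-mer sites, a form held by 9.85% and 9.94% of the protein-coding genes of the precursor and antimir comparisons. The fourth site, in DUSP4, is also an 8-mer and is not printed here.
DUSP5 (chr10:110511457-110511463, plus strand, base 1031 of a UTR of 1118): gacccgtgtgAATGTGAagaaaagcag
SPRY2 (chr13:80336294-80336300, minus strand, base 458 of a UTR of 782): cattcggaagAATGTGAatcaatcagt
SPRY4 (chr5:142312330-142312336, minus strand, base 1873 of a UTR of 3782): gtaaaaggcgAATGTGAaatattgcat

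A perfect 7-mer is a description of letters and not of binding. DUSP6, SPRY1, SPRED1, SPRED2, ETV4 and ETV5 had no match in the UTR searched. The 4 genes with a site had a median difference of 0.059 in the precursor comparison, where 1 of the 4 was below 0, and of -0.14 in the antimir comparison, where all 4 were below 0. The other 6 had medians of 0.080 and -0.074 in the same comparisons. Over all protein-coding genes past the minimum, the median difference in the precursor comparison was -0.021 with a site and 0.012 without one, and 56.2% of those with a site were below 0. In the antimir comparison these medians were -0.0031 and -0.0018, and 50.7% of those with a site were below 0.

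In the precursor comparison, none of the 10 feedback genes passed 1.5-fold, where 6.68% of all genes and 1.15% of protein-coding genes did. Their differences lay between -0.14 and 0.15 with a median of 0.068, and 7 of 10 were above 0, against 51.3% of protein-coding genes. Of the colon epithelial markers examined above, all 9 past the minimum were above 0 in this comparison, with a median of 0.085. The 2.5th and 97.5th percentiles of protein-coding genes were -0.38 and 0.38, and every member lay between them. In the antimir comparison, again none of the 10 passed 1.5-fold, where 7.97% of all genes and 2.63% of protein-coding genes did. Here 9 of 10 members were below 0 and 1, ETV5, was above it, with a median of -0.10 and a range of -0.34 to 0.27. Of the 8 colon epithelial markers past the minimum, 3 were above 0, with a median of -0.065. Of protein-coding genes, 49.5% were above 0 in that comparison, and their 2.5th and 97.5th percentiles, which also enclosed every member, were -0.42 and 0.50.

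**Figure D1:**
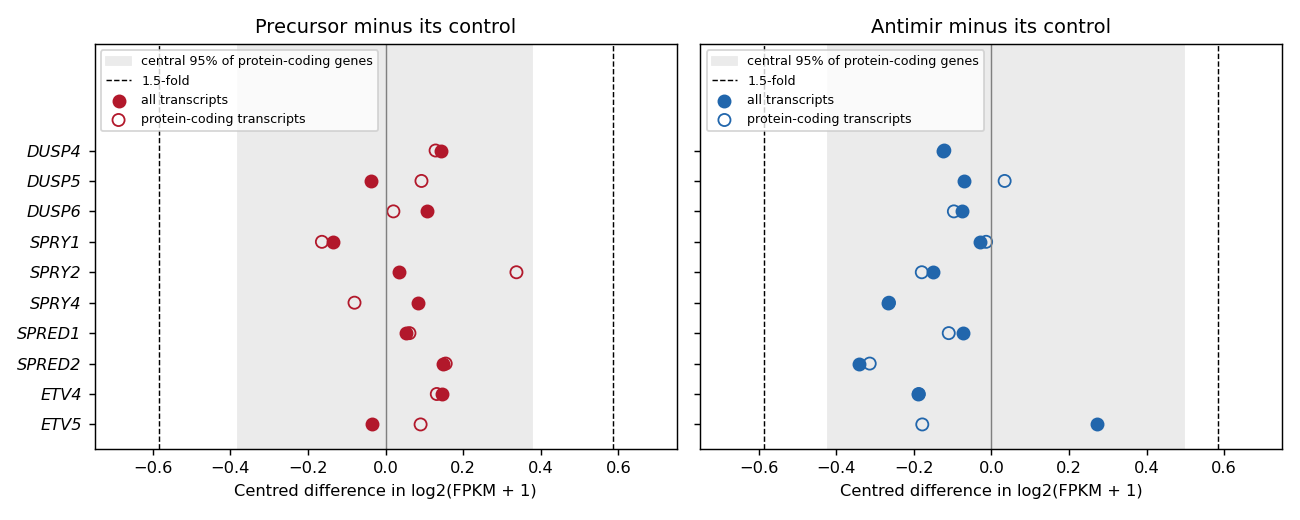
Difference of each feedback gene in log2(FPKM + 1), centred on the median gene, precursor minus its control (left panel) and antimir minus its control (right panel). Filled points sum all transcripts, open points only protein-coding ones, the grey band spans the central 95% of protein-coding genes and dashed lines mark 1.5-fold. No point reaches a dashed line, and ETV5 in the right panel lies at 0.27 by all transcripts and at -0.18 by protein-coding ones.

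The 2 comparisons have separate controls, so their signs can be set side by side. Of the 10 members, 7 were above 0 with the precursor and below 0 with the antimir. Of protein-coding genes measured in both, 29.9% showed that combination. The members were chosen by name, with earlier results of these data known, and are known targets of the same pathway. They are therefore not 10 independent observations, and no test is given. By protein-coding transcripts alone, an alternative added after seeing the data, 8 of 10 were above 0 with the precursor (median 0.091) and 1 of 10 with the antimir (median -0.15).

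Among the ERK phosphatases, DUSP6 was the most abundant and DUSP5 the least. DUSP6, a cytoplasmic phosphatase with strong preference for ERK, lies at chr12:89741050-89747048 (hg19), had the highest summed level of the 10 members in all 4 libraries, and is listed as ENSG00000139318.6. It had 70.7 FPKM in the precursor library and 64.6 FPKM in its control, a difference of 0.11. It had 50.0 FPKM in the antimir library and 54.1 FPKM in its control, a difference of -0.075. The precursor library was thus slightly higher and the antimir library slightly lower than its own control, by 9.47% and by -7.65% of the control level. By protein-coding transcripts alone the DUSP6 differences were 0.020 with the precursor and -0.097 with the antimir.

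DUSP4 (ENSG00000120875.4, chr8:29190581-29208185, hg19) encodes a nuclear phosphatase that acts on ERK and other MAP kinases. It had 5.25 FPKM in the precursor library and 4.57 FPKM in its control, a difference of 0.14. It had 4.70 FPKM in the antimir library and 5.38 FPKM in its control, a difference of -0.12. DUSP4 is the member in which the relative gap was widest among phosphatases, by 14.8% of the control level with the precursor and -12.6% with the antimir.

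DUSP5 (ENSG00000138166.4, chr10:112257596-112271302, hg19), a nuclear phosphatase specific for ERK, was the lowest of the 10 members in every library. It had 2.85 FPKM in the precursor library and 2.89 FPKM in its control, a difference of -0.037. It had 2.11 FPKM in the antimir library and 2.35 FPKM in its control, a difference of -0.070. Its single protein-coding transcript had 2.04 and 1.78 FPKM for precursor and control (centred difference 0.093), and 2.06 and 2.07 FPKM for antimir and control (0.034), so the sign of DUSP5 depends on which transcripts are summed.

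**Figure D2:**
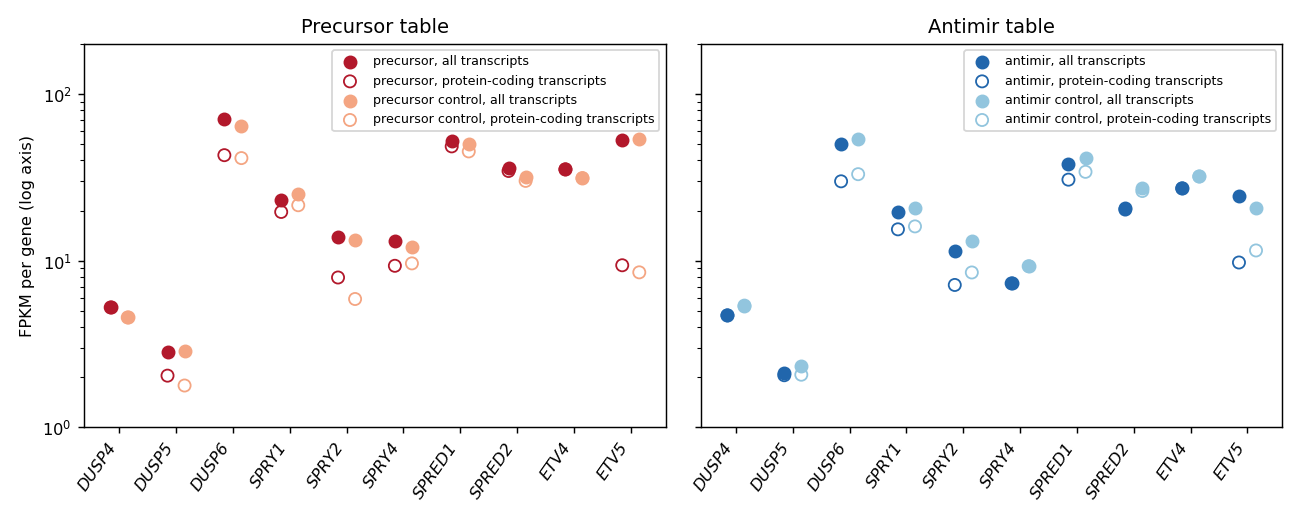
Level of each feedback gene in FPKM on a log axis, precursor and its control in the left panel, antimir and its control in the right panel. Filled points sum all transcripts and open points the protein-coding ones, hidden where they coincide, and the tables were normalised separately. DUSP6 is highest and DUSP5 lowest in all 4 libraries by all transcripts, and ETV5 shows the widest gap between filled and open points.

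Sprouty proteins bind adaptors and RAF and limit RAS to ERK signalling. SPRY1 (ENSG00000164056.6, chr4:124317950-124324910, hg19) had 23.1 FPKM in the precursor library and 25.1 FPKM in its control, a difference of -0.14, the lowest of the 10 members in that comparison. It had 19.6 FPKM in the antimir library and 20.6 FPKM in its control, a difference of -0.029. SPRY1 was therefore lower than its control in both comparisons, as only DUSP5 was too.

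SPRY2 (ENSG00000136158.5, chr13:80910111-80915086, hg19) had 13.8 FPKM in the precursor library and 13.2 FPKM in its control, a difference of 0.035. It had 11.4 FPKM in the antimir library and 13.1 FPKM in its control, a difference of -0.15. Its protein-coding transcripts alone gave 0.34 and -0.18. By coding transcripts, an alternative added after seeing the data, SPRY2 had the largest difference of the members in the precursor comparison, at 0.34. Over all its transcripts that difference was only 0.035. SPRY2 carries 1 of the printed seed matches, and whether the match bears on these values was not tested.

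SPRY4 (ENSG00000187678.7) lies in a locus of the authors' table at chr5:141689992-142077617 (hg19) that it shares with FGF1 and 3 other genes. It had 13.1 FPKM in the precursor library and 12.1 FPKM in its control, a difference of 0.084. It had 7.32 FPKM in the antimir library and 9.28 FPKM in its control, a difference of -0.27. Relative to its control the antimir level of SPRY4 differed by -21.1%, the second largest relative gap below control in that comparison, after SPRED2. By protein-coding transcripts its sign with the precursor turned, at 9.33 FPKM against 9.65 FPKM in the control (difference -0.080).

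SPRED proteins carry a Sprouty-type domain and recruit neurofibromin, which switches RAS off. SPRED1 (ENSG00000166068.8, chr15:38544527-38649450, hg19) had 52.6 FPKM in the precursor library and 49.9 FPKM in its control, a difference of 0.053. It had 38.2 FPKM in the antimir library and 41.4 FPKM in its control, a difference of -0.073. By protein-coding transcripts SPRED1, and not DUSP6, was the most abundant member in all 4 libraries. These SPRED1 transcripts had 48.6 and 45.3 FPKM for precursor and control and 30.7 and 34.2 FPKM for antimir and control. Much of that lay in ENST00000561317.1, an entry of 527 bases, at 31.7, 29.1, 14.4 and 15.5 FPKM in the same order. The other coding SPRED1 form, ENST00000299084.4, lay at 16.2 to 18.7 FPKM. The most abundant coding DUSP6 transcript alone, ENST00000308385.6, lay at 21.8 to 23.4 FPKM. How entry length bears on this rank was not tested.

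SPRED2 (ENSG00000198369.5, chr2:65537985-65659771, hg19) had 35.9 FPKM in the precursor library and 31.8 FPKM in its control, a difference of 0.15, the highest of the 10 members. It had 20.7 FPKM in the antimir library and 27.3 FPKM in its control, a difference of -0.34, the lowest of the 10. SPRED2 differed from its controls by 12.9% and -23.9% in these comparisons, and the result was similar by protein-coding transcripts, at 0.16 and -0.31.

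The PEA3-type ETS factors bind DNA and carry part of the transcriptional response to ERK. ETV4 (ENSG00000175832.7, chr17:41605212-41623762, hg19) had 35.4 FPKM in the precursor library and 31.4 FPKM in its control, a difference of 0.15. It had 27.2 FPKM in the antimir library and 32.0 FPKM in its control, a difference of -0.19. All of its listed transcripts are typed protein-coding, so both ways of summing rest on the same entries.

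ETV5 (ENSG00000244405.3) lies in a locus at chr3:185764097-186080026 (hg19) that it shares with DGKG, the antisense gene ETV5-AS1 and 1 further gene. It had 53.1 FPKM in the precursor library and 53.6 FPKM in its control, a difference of -0.036. It had 24.5 FPKM in the antimir library and 20.6 FPKM in its control, a difference of 0.27. ETV5 was the member that differed most in sign from ETV4, and its protein-coding transcripts gave 9.40 against 8.52 FPKM for precursor and control (0.090), and 9.76 against 11.5 FPKM for antimir and control (-0.18). Nothing in the sources used here says whether reads were counted by strand, so reads of ETV5 and of ETV5-AS1 cannot be told apart.

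The share of a gene's FPKM held by transcripts typed protein-coding in GENCODE 29 separated the members. DUSP4 and ETV4 stood at 100% in all 4 libraries. DUSP6 lay between 60.0% and 64.0%, and it stood second among members when coding transcripts alone were ranked. ETV5 had a share of 17.7% with the precursor and 15.9% in that control, and of 39.9% with the antimir and 55.9% in that control. For SPRY2 the share was 57.4% and 44.5% for precursor and control, and 62.7% and 64.8% for antimir and control. The remainder of SPRY2 lay in transcripts that GENCODE 29 does not list, whose type is therefore not known here.

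**Figure D3:**
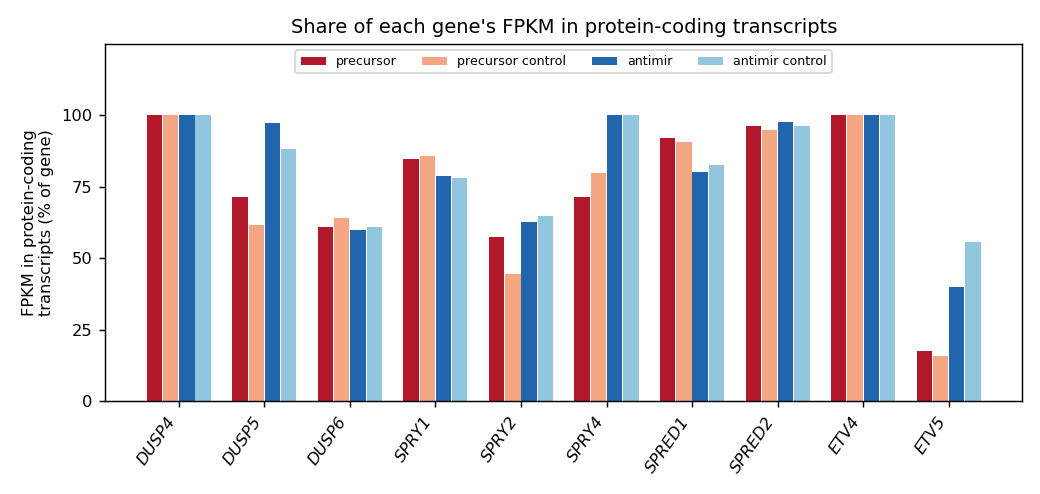
Share of each feedback gene's FPKM (per cent) in transcripts typed protein-coding, with 4 bars per gene for precursor, precursor control, antimir and antimir control. DUSP4 and ETV4 reach 100% in every library, and ETV5 is lowest, at 15.9% to 55.9%.

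The tables held 57 transcripts and 10 entries under a gene identifier for the 10 members, none with a failed status, and 52 of the 57 transcripts could be matched in GENCODE 29. In the authors' deposited table for the precursor, 45 of these transcripts had been tested and 2 were called, or 4.44%, against 13.6% of all tested transcripts. In the authors' deposited table for the antimir, 38 had been tested and none was called, against 0.414% of all tested transcripts. The authors' deposited tables gave an unadjusted p under 0.05 for 5 of the 45 (11.1%, against 25.6% of all transcripts tested) and 2 of the 38 (5.26%, against 3.90%). These p-values compare 1 library with 1 library.

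Of the called transcripts, the first was the main SPRY2 mRNA. SPRY2 ENST00000377104.3 had 7.94 FPKM in the precursor library and 5.90 FPKM in its control, with a q-value of 0.0200 in the authors' deposited table. In the antimir comparison this SPRY2 transcript had 7.16 FPKM and its control 8.51 FPKM, and the authors' deposited table did not call it. The seed match printed for SPRY2 lies in the 3′ UTR of this transcript. The SPRY2 transcripts absent from GENCODE 29 were below the control, ENST00000540649.1 at 3.51 FPKM with the precursor and 3.76 FPKM in its control, and ENST00000541655.1 at 2.37 FPKM and 3.58 FPKM.

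The second was a coding form of ETV4. ETV4 ENST00000545089.1 had 7.89 FPKM in the precursor library and 5.05 FPKM in its control, with a q-value of 0.00219 in the authors' deposited table. This ETV4 form had 1.05 FPKM in the antimir library and 0.029 FPKM in its control, above the control as well, unlike the ETV4 sum. The most abundant ETV4 transcript, ENST00000538265.1, had 15.1 FPKM and 13.3 FPKM in these libraries, and 17.8 FPKM and 19.0 FPKM in the antimir library and its control. ETV4 ENST00000545954.1 had 0.775 FPKM in the antimir library against 5.15 FPKM in its control, with a q-value of 0.446 in the authors' deposited table. The ETV4 sum thus combined forms that differed in size and direction between libraries.

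For ETV5, 1 short entry carried much of the sum. ENST00000495808.1, typed as a retained intron and 187 bases long, had 26.6 FPKM in the precursor library and 28.4 FPKM in its control. This ETV5 entry had 4.27 FPKM in the antimir library and was listed at 0 in its control, a gap wider in FPKM than that of the whole ETV5 sum. The full coding ETV5 transcript ENST00000306376.5 had 7.73 and 7.82 FPKM for precursor and control. The same ETV5 transcript had 8.51 and 10.04 FPKM for antimir and control. A further ETV5 entry, ENST00000433149.1, is typed as a target of nonsense-mediated decay and is 366 bases long. It had 9.79 FPKM in the precursor library and 5.10 FPKM in its control, with a q-value of 0.0729 in the authors' deposited table. In the other direction, the ETV5 processed transcript ENST00000472868.2 had 2.80 FPKM and 6.28 FPKM for precursor and control. Its q-value in the authors' deposited table was 0.430. For antimir and control, ENST00000472868.2 had 2.75 FPKM and 2.04 FPKM.

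**Figure D4:**
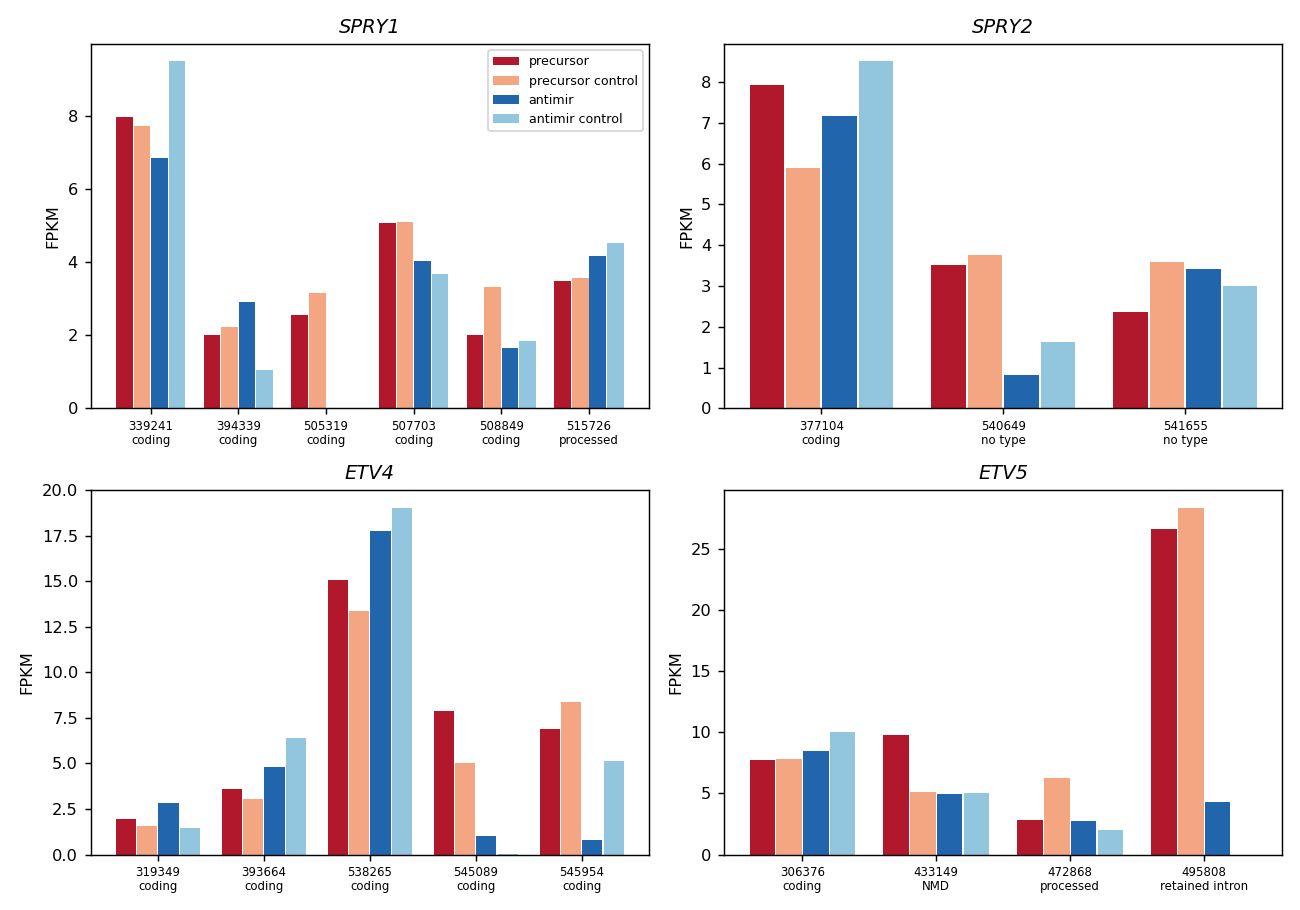
FPKM of the main transcripts of SPRY1, SPRY2, ETV4 and ETV5, with bars for precursor, precursor control, antimir and antimir control, and the last 6 digits of each Ensembl transcript number above its type. The SPRY2 coding form stands at 7.94 with the precursor and 5.90 in its control, and the ETV5 retained intron at 26.6 and 28.4, against 4.27 and 0 for antimir and its control.

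DUSP6 was spread over 5 listed forms. Its most abundant coding transcript ENST00000308385.6, 1959 bases long, had 21.8 FPKM in the precursor library and 23.0 FPKM in its control, and 21.8 FPKM in the antimir library and 23.4 FPKM in its control. The DUSP6 processed transcript ENST00000547140.1, 604 bases long, had 27.7 FPKM and 23.3 FPKM for precursor and control, and 20.0 FPKM and 21.0 FPKM for antimir and control. DUSP6 ENST00000548755.1, a coding entry of 567 bases, had 9.33 FPKM in the precursor library and 6.49 FPKM in its control, and the coding entry ENST00000279488.6 had 3.81 FPKM and 3.57 FPKM. DUSP6 ENST00000547291.1, a coding entry of 1074 bases, had 8.08 FPKM and 8.26 FPKM for precursor and control. For antimir and control it had 1.40 FPKM and 3.11 FPKM (difference -0.74). The DUSP6 forms thus lay on both sides of the control with the precursor, with the widest gaps above it in the entries of 604 and 567 bases.

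SPRY1 forms also differed among themselves. SPRY1 ENST00000339241.1 had 7.98 FPKM in the precursor library and 7.73 FPKM in its control, and 6.85 FPKM in the antimir library and 9.50 FPKM in its control. SPRY1 ENST00000394339.2 had 2.91 FPKM in the antimir library and 1.04 FPKM in its control, with a q-value of 0.454 in the authors' deposited table. The nearly equal SPRY1 sums in the antimir comparison were made of forms that lay on both sides of their control.

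SPRED1 was carried mostly by a pair of coding forms. SPRED1 ENST00000561317.1, 527 bases long, had 31.7 FPKM and 29.1 FPKM for precursor and control, and 14.4 FPKM and 15.5 FPKM for antimir and control. SPRED1 ENST00000299084.4 had 16.9 FPKM and 16.2 FPKM for precursor and control, and 16.3 FPKM and 18.7 FPKM for antimir and control. Both coding forms had the sign of the SPRED1 sum in both comparisons. The remaining SPRED1 entry, the processed transcript ENST00000561205.1, had the opposite sign in both. It had 4.06 FPKM and 4.58 FPKM for precursor and control, and 7.54 FPKM and 7.18 FPKM for antimir and control.

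In SPRED2 the leading forms also kept the sign of the sum. SPRED2 ENST00000356388.4 had 16.7 FPKM and 14.5 FPKM for precursor and control, and 15.9 FPKM and 18.9 FPKM for antimir and control. SPRED2 ENST00000440972.1, 555 bases long, had 12.4 FPKM and 9.88 FPKM for precursor and control, and 3.61 FPKM and 5.62 FPKM for antimir and control. SPRY4 was led by ENST00000344120.4, which had 7.15 FPKM and 6.45 FPKM for precursor and control, and 5.92 FPKM and 7.16 FPKM for antimir and control. SPRY4 ENST00000359661.2, which GENCODE 29 does not list, had 3.40 FPKM and 2.15 FPKM for precursor and control. It was at 0 in both libraries of the antimir comparison. The SPRY4 coding entry ENST00000511815.1 had 0.589 FPKM and 1.51 FPKM for precursor and control, and 0.802 FPKM and 1.22 FPKM for antimir and control. With the precursor, the SPRY4 forms thus lay on both sides of the control.

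The entries under a gene identifier were kept out of all sums. For the members, 9 of 10 such entries were lower in the precursor library than in its control, where 77.7% of those of all genes were. Of the 10, 5 had been tested in the authors' deposited table and 2 were called lower with the precursor, where 30.2% of all tested entries of this kind were. These were ETV4, at 1.01 FPKM against 1.38 FPKM in the control with a q-value of 0.00281 in the authors' deposited table, and SPRY4, at 2.11 FPKM against 2.69 FPKM in the control with a q-value of 0.0202 there. The summed transcripts of ETV4 lay above the control, on the other side from its identifier entry. Those of SPRY4 did so by all transcripts but not by protein-coding ones. In the antimir comparison 7 of 10 were lower, against 43.8% of those of all genes, and none of the 5 tested was called in the authors' deposited table, where 0.0212% of all tested entries were called lower.

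The DUSP6 promoter is shown because it was the only one of the 10 promoter windows searched, from 6 members, with an octamer bound by CIC (Capicua), a repressor that ERK inactivates and that is known to repress ETV4, ETV5 and other ERK target genes. RefSeq windows of 300 bases (250 before to 50 after a start) were at hand for 6 of the 10 members, and DUSP4, DUSP5, ETV4 and ETV5 were not searched. The motifs searched on both strands were TGAATGAA, TGAATGGA, TCAATGAA and TCAATGGA. Of 35116 windows in the table, 3.77% held at least 1 and 0.327% held 2, as the DUSP6 window did. The window lies at chr12:89352452-89352751 (GRCh38.p14, minus strand), and the capitals mark TCCATTGA, the reverse complement of TCAATGGA.
DUSP6 promoter: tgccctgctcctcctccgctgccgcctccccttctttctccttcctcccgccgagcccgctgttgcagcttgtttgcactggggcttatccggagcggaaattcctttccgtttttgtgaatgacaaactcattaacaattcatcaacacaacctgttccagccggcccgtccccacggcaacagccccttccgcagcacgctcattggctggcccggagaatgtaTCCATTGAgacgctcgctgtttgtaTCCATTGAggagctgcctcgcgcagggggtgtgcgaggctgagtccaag
One octamer begins 24 bases before the annotated start and the other just after it. A match is a string of letters in this window and not a measured site. CIC itself had 7.18 FPKM in the precursor library and 5.77 FPKM in its control (difference 0.25), and 5.86 FPKM in the antimir library and 7.33 FPKM in its control (difference -0.24). CIC mRNA lay on the same side of its controls as DUSP6 mRNA in both comparisons. Whether CIC has a part in the DUSP6 values was not tested.

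The rest of the pathway was examined through 5 lists of 53 genes, none of which held a gene past 1.5-fold in either comparison. Of the other ERK-induced genes, 9 of 10 passed the minimum. All 9 were above 0 with the precursor (median 0.14) and 2 of 9 with the antimir (median -0.19). The colon epithelial markers past the minimum were likewise all above 0 with the precursor (median 0.085), and 3 of 8 were with the antimir (median -0.065). By the most abundant transcript alone, 7 of 9 other ERK-induced genes were above 0 with the precursor and 2 of 9 with the antimir. PHLDA1, an apoptosis-linked early gene, had 20.8 FPKM and 16.3 FPKM for precursor and control (difference 0.32). The PHLDA1 difference there was 0.17 by its most abundant transcript and 0.16 by protein-coding transcripts. EGR1, an immediate early transcription factor, had 9.01 FPKM and 7.40 FPKM for precursor and control (difference 0.23), and 3.66 FPKM and 5.91 FPKM for antimir and control (difference -0.53). FOSL1, an AP-1 subunit stabilised by ERK, had 8.32 FPKM and 7.26 FPKM for precursor and control (difference 0.15), and 3.33 FPKM and 4.95 FPKM for antimir and control (difference -0.42). EGR1 had the same pair of signs as 7 of the feedback genes, and so had FOSL1 by all transcripts, whereas by its most abundant transcript alone FOSL1 had differences of -0.52 with the precursor and 0.091 with the antimir. EGR1 in the antimir comparison came nearest to 1.5-fold of any gene in the 5 lists. FOS, another AP-1 subunit, had 19.4 FPKM and 24.9 FPKM for antimir and control (difference -0.30).

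Of the other MAP kinase phosphatases, 5 of 7 passed the minimum, and 4 were above 0 with the precursor (median 0.15) and 1 with the antimir (median -0.028). That one was DUSP2, a nuclear phosphatase, at 3.30 FPKM and 2.57 FPKM for antimir and control (difference 0.31). The DUSP2 difference there was 0.049 by its most abundant transcript and 0.061 by protein-coding transcripts. All 18 genes of the RAS-RAF-MEK-ERK core passed, with 12 above 0 with the precursor (median 0.062) and 6 with the antimir (median -0.034). Those furthest from 0 with the precursor were MAP2K2, encoding MEK2, at 56.6 FPKM and 46.1 FPKM for precursor and control (difference 0.27), and MAPK3, encoding ERK1, at 56.2 FPKM and 47.7 FPKM (difference 0.21). MAPK3 was also higher in the antimir library, at 33.8 FPKM against 29.4 FPKM in its control (difference 0.23), though by its most abundant transcript alone its difference there was -0.18. PTPN11, the phosphatase SHP2 that relays receptor signals to RAS, had 40.4 FPKM and 50.3 FPKM for antimir and control (difference -0.27). The PTPN11 difference there was -0.13 by its most abundant transcript and -0.12 by protein-coding transcripts. BRAF, named because HT29 carries it mutated, had 10.2 FPKM and 10.1 FPKM for precursor and control, and 9.92 FPKM and 11.5 FPKM for antimir and control.

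Of the other RAS-ERK inhibitors, 7 of 10 passed the minimum, with 2 above 0 in each comparison and medians of -0.017 for the precursor and -0.10 for the antimir. RASA2, a RAS GTPase-activating protein, had 11.5 FPKM and 15.5 FPKM for precursor and control (difference -0.42). The RASA2 difference was -0.18 by its most abundant transcript and -0.083 by protein-coding transcripts. ERRFI1, an inhibitor of EGF receptor family kinases, had 33.2 FPKM and 42.8 FPKM for antimir and control (difference -0.32). Of CIC and the other ETS factors, all 8 passed, with 4 above 0 with the precursor (median 0.029) and 3 with the antimir (median -0.070). ETS2 had 166 FPKM and 142 FPKM for precursor and control (difference 0.20), and ELK3 had 2.65 FPKM and 4.25 FPKM for antimir and control (difference -0.49). The ELK3 difference turned to 0.11 by its most abundant transcript and to 0.12 by protein-coding transcripts. All 4 lists other than the ERK-induced genes had members on both sides of 0 in both comparisons.

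**Figure D5:**
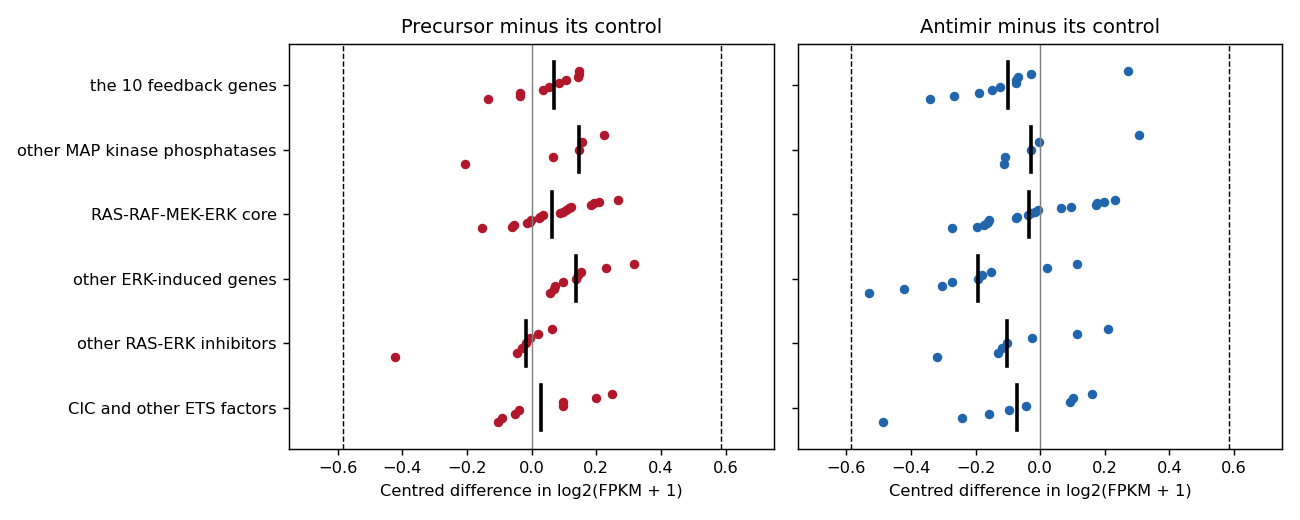
Centred difference in log2(FPKM + 1) of each gene past the minimum in the feedback genes and the 5 pathway lists, precursor minus its control (left panel) and antimir minus its control (right panel), with black bars at list medians and dashed lines at 1.5-fold. The other ERK-induced genes have medians of 0.14 and -0.19 and the feedback genes of 0.068 and -0.10, and no point lies beyond a dashed line.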

How the data were processed

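The submitters' processing notes name bcl2fastq 1.8.3, TopHat2 2.0.11, Cufflinks 2.2.0, Cuffdiff and hg19. Annotation and settings are not given in the sources used here. Values were FPKM per isoform in 2 tables that the authors deposited, each with 1 treated library and 1 other library, taken as its control, and the tables were normalised separately. The deposited p-value and q-value of each isoform are the authors' and rest on no replicates. The authors' deposited fold column runs control over treated and was not used.

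Transcripts were summed per gene, leaving out failed entries (1321 and 1528 of 212874 in the precursor and antimir tables) and gene-identifier entries of genes with transcripts. The pseudocount was 1 and the minimum a mean of 1 FPKM. Medians of 0.022 (precursor) and -0.038 (antimir) were removed. The named genes were all members, their transcripts holding at least 10% of a gene's FPKM or called by the authors, and up to 3 genes per list and comparison with the largest differences, of which not all are given. Members, lists and tests were chosen with earlier results of these data known. GENCODE 29 (GRCh38) was matched by identifier only. Locus starts, deposited counting from 0, were raised by 1. Computation used Python 3.11.15 with pandas 2.3.3, and was tested on simulated data. The alternatives comprised 8 planned settings and 1 added after seeing the data.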

Additional observations from a re-analysis of the deposited data

How the results depend on the processing

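No feedback gene passed 1.5-fold under any of the 9 alternatives in either comparison. The number of members above 0 in the antimir comparison was 2 with transcripts of status OK only. Signs of single members changed only where the transcripts entering the sum changed: with the most abundant transcript alone in DUSP5 and SPRY1 (precursor) and DUSP5 and ETV5 (antimir), with status OK only in DUSP5 (antimir), and with protein-coding transcripts only in DUSP5, SPRY4 and ETV5 (precursor) and DUSP5 and ETV5 (antimir). In the precursor comparison, the median of other MAP kinase phosphatases was -0.034 at a mean of at least 5 FPKM, that of other RAS-ERK inhibitors 0.024 with no minimum and 0.0058 without centring, and that of CIC and ETS factors -0.010 with the most abundant transcript. In the antimir comparison, the phosphatases' median was 0.049 with the most abundant transcript, 0.016 with status OK only and 0.022 with protein-coding transcripts. The median of other ERK-induced genes was -0.085 with the most abundant transcript and -0.30 with protein-coding ones, and 1 of them, EGR1, passed 1.5-fold at a pseudocount of 0.1, with the most abundant transcript, with status OK only and with protein-coding ones. The RAS-ERK inhibitors' median was 0.0 with no minimum, where SPRY3 entered under both of its gene identifiers. That median was the SPRY3 value, from 0 FPKM in both libraries. The precursor median of 0.024 with no minimum was likewise the SPRY3 value. In the antimir comparison 1 of these inhibitors, PEBP1, passed 1.5-fold by protein-coding transcripts. The CIC and ETS median was 0.11 with the most abundant transcript, 1 of these genes, ELK3, passed 1.5-fold at a pseudocount of 0.1, and 1 core gene, FRS2, did with the most abundant transcript. The cause of these moves was not tested. No paired analysis was possible because each group held 1 library and no result comes from a test. Depth is unknown from FPKM, so how far counting error limits low members such as DUSP5 cannot be given.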
